A study of Mus musculus with 24 samples.

Results

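The 4 mouse genes Entpd1, Nt5e, Cd38 and Bst1 encode enzymes that face the outside of the cell and break down nucleotides. Peaks of open chromatin were assigned to them by position. A peak was a member when its summit lay inside one of the 4 genes, or within 100 kb with that gene as the nearest protein-coding gene on GRCm38, in a list of at least 10000 peaks. This gave 460 member peaks of 565505 in 18 peak lists, with 173 at Entpd1, 123 at Nt5e, 107 at Bst1 and 57 at Cd38. Of these, 326 had their summit inside the gene, and the farthest lay 96.9 kb away, at Nt5e. No peak nearest to one of the genes fell beyond the limit. The shortest list used held 14244 peaks, and the longest list left out held 6613. The 4 genes were selected on measured values: the ranks of regions at Entpd1 and Cd38 were already known to differ between tumor cells with and without the tdTomato label. Differences from the unlabelled tumor cells are therefore given as a description, with no p-value for a region.

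Entpd1 encodes CD39, which removes phosphates from extracellular ATP and ADP to leave AMP. Nt5e encodes CD73, which turns that AMP into adenosine, a nucleoside that dampens T cells through receptors on their surface. Cd38 and Bst1, neighbours on chromosome 5 that arose from a common ancestral gene, encode CD38 and CD157, which consume NAD and produce ADP-ribose and cyclic ADP-ribose. CD39 and CD38 are used as markers of dysfunctional CD8 T cells in tumors, whereas CD73 is carried by many resting CD8 T cells.

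All cells were CD8+ T cells sorted from mice of the C57BL/6 background with the alleles Lag3-iCreERT2 and Rosa26-LSL-tdTomato, which carried B16-F10 melanoma, a transplantable mouse tumor line. In these mice tamoxifen activates a Cre recombinase in cells that express Lag3, the gene of an inhibitory receptor, and the recombinase switches on tdTomato for good. All mice had received 2 mg of tamoxifen on days 8 to 10 after implantation and were harvested on day 19, and all libraries carried the same batch label. The label therefore marks cells that expressed Lag3 while tamoxifen was active, and cells without it may have expressed the gene at another time. DN cells had neither LAG3 protein nor tdTomato, and DP cells had both. The libraries named LAG3_SP are described as lacking LAG3 and carrying tdTomato, and those named TDT_SP as carrying tdTomato, with no LAG3 state given. The protocol also lists a sort of CD44+ tdTomato+ cells and ties it to no library name, so the 2 names are kept here as they stand. Both groups are called labelled on these descriptions alone, although the name LAG3_SP could be read as LAG3 without tdTomato.

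Open chromatin was measured by Omni-ATAC in 24 libraries of 10 groups. Tumor gave 4 DN, 4 DP, 3 LAG3_SP and 3 TDT_SP libraries, and 5 libraries came from each of the draining (DLN) and non-draining (NDLN) lymph nodes, with 2 of DN, 2 of TDT_SP and 1 of LAG3_SP. The 18 lists used held 14244 to 48268 peaks, and 6 lists of 301 to 6613 peaks were left out of the fits. No read counts come with the lists, and the depth of a peak is therefore unknown. Tumor LAG3_SP replicate 3 had the narrowest peaks of the tumor lists used, with a median width of 147 bp. DN replicate 4 and DP replicate 4 followed at 206 and 209 bp, and the other tumor lists used were at 282 to 388 bp. Results that turn on LAG3_SP replicate 3 are given without it as well.

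Marker genes were read as the highest rank value (1 for the strongest peak, 0 for none) of any region of the gene among the strongest 14000 peaks. Of 7 CD8 T cell markers, 4 to 7 had such a peak in the tumor libraries and 6 or 7 in the lymph node libraries. Of 6 B cell markers, 0 to 3 had one in tumor, and Ms4a1, Cd79a and Cd79b were at 0 in every library used. Of 8 myeloid markers 1 or 2 had one in every library used, and Csf1r, Lyz2, Adgre1, Spi1, Cebpa and Fcgr3 were at 0 throughout. Of 6 melanoma markers 2 or 3 had one in tumor and 2 in the lymph nodes, with Tyr, Dct and Sox10 at 0 in both. Of 4 NK markers 3 had one in each library, without Ncr1, and of 6 stromal and endothelial markers 1 or 2 had one, with Cdh5, Kdr, Col1a2 and Pdgfrb at 0 in both tissues.

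The promoters of the genes are shown first, because their base composition differs and because the peaks over them were, apart from the first start of Entpd1, weaker than the strongest elsewhere at the same genes. Each sequence is the 250 bases before an annotated start, from RefSeq on GRCm38.p6, plus strand, 5′ to 3′. Capitals mark GC boxes (GGGCGG) in Nt5e, and, in Entpd1, the core of the cAMP response element (TGACG) and the box named CCAAT, on either strand. RefSeq entries were matched for 3 of the 4 genes, with 2 starts for Entpd1 and none for Bst1.

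Nt5e, chr9:88327359-88327608: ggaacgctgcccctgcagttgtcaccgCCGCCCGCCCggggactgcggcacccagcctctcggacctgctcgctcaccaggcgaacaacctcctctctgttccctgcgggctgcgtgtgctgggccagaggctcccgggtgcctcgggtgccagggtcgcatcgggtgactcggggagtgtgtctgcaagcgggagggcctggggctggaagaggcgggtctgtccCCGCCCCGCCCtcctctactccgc

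Cd38, chr5:43868559-43868808: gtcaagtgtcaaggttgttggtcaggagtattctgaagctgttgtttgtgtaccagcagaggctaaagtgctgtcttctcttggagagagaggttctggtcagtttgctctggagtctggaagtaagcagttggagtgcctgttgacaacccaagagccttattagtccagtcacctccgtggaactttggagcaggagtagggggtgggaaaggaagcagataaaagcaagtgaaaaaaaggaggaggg

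Entpd1 first start, chr19:40612116-40612365: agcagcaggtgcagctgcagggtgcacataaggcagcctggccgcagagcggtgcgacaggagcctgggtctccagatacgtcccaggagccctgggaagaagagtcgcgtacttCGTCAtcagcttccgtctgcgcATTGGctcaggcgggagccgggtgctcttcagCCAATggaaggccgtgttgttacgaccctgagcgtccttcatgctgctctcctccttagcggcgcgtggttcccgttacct

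Entpd1 internal start, chr19:40659520-40659769: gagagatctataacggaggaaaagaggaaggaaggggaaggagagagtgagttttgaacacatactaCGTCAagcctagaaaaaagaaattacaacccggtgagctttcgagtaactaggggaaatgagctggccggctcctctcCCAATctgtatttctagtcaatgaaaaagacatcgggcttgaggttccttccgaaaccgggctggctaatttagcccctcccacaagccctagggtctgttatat

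Both strands were searched. The GC box GGGCGG is found in 33.0% of the 32619 mouse promoters of this length, the cAMP element core TGACG in 17.9% and the box named CCAAT in 34.0%. The hypoxia element core ACGTG is found in 16.7%, the AP-1 motif TGANTCA in 6.78%, the RUNX motif TGTGGT in 13.9%, the ETS motif CCGGAAG in 6.96% and the TCF motif CTTTGA in 13.9%. None of the last 5 was in the 4 windows. The Nt5e promoter was 72.0% G and C with 21 CpG and held 4 GC boxes, some of which overlap. The Cd38 promoter was 48.8% G and C with 1 CpG and held none of the motifs. The first Entpd1 promoter was at 62.4% with 18 CpG, 1 cAMP element core and 2 matches to CCAAT, and the internal one at 47.2% with 8 CpG and 1 match to each of the same motifs. The median promoter had 52.4% G and C and 6 CpG. A match describes the letters only and does not show that a factor binds there.

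Peaks over these windows (each with the next 50 bases) differed in strength. A list ranks its peaks from 1, the strongest by the authors' -log10 p. The Nt5e window had a peak in 17 of 18 lists, at ranks 9622 to 21020, and the Cd38 window in 8 of 18, at rank 17622 or weaker. The internal Entpd1 window also had one in 8 of 18, at rank 22965 or weaker. The first Entpd1 window had a peak in 18 of 18 lists at ranks 1023 to 6465, with a median of 2050. Tctn3, the gene of a protein of the ciliary transition zone, starts 42 bp before this start and runs in the opposite direction, and every summit there was nearest to Tctn3. By the rule above that strong peak is not a member, and the 173 peaks of Entpd1 describe the rest of its locus.

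For comparisons, the strongest 19000 peaks of each of 12 tumor lists were given a rank value, which runs from 1 for the strongest to near 0 for the weakest, and is 0 where a library has no such peak. It gives a place in the order of 1 library and does not measure how much chromatin was open. In bulk cells a weaker peak from fewer cells with an open region and from less opening in each cell cannot be told apart. Of the 331 member peaks in tumor lists, 186 were among the strongest 19000. They gave 25 regions of 501 bp (9 at Entpd1, 6 at Nt5e, 4 at Cd38 and 6 at Bst1) of 27065 in all. Regions are named by the distance of their centre from the lower coordinate of the gene, which is the annotated start of Entpd1, Nt5e and Cd38.

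**Figure D1:**
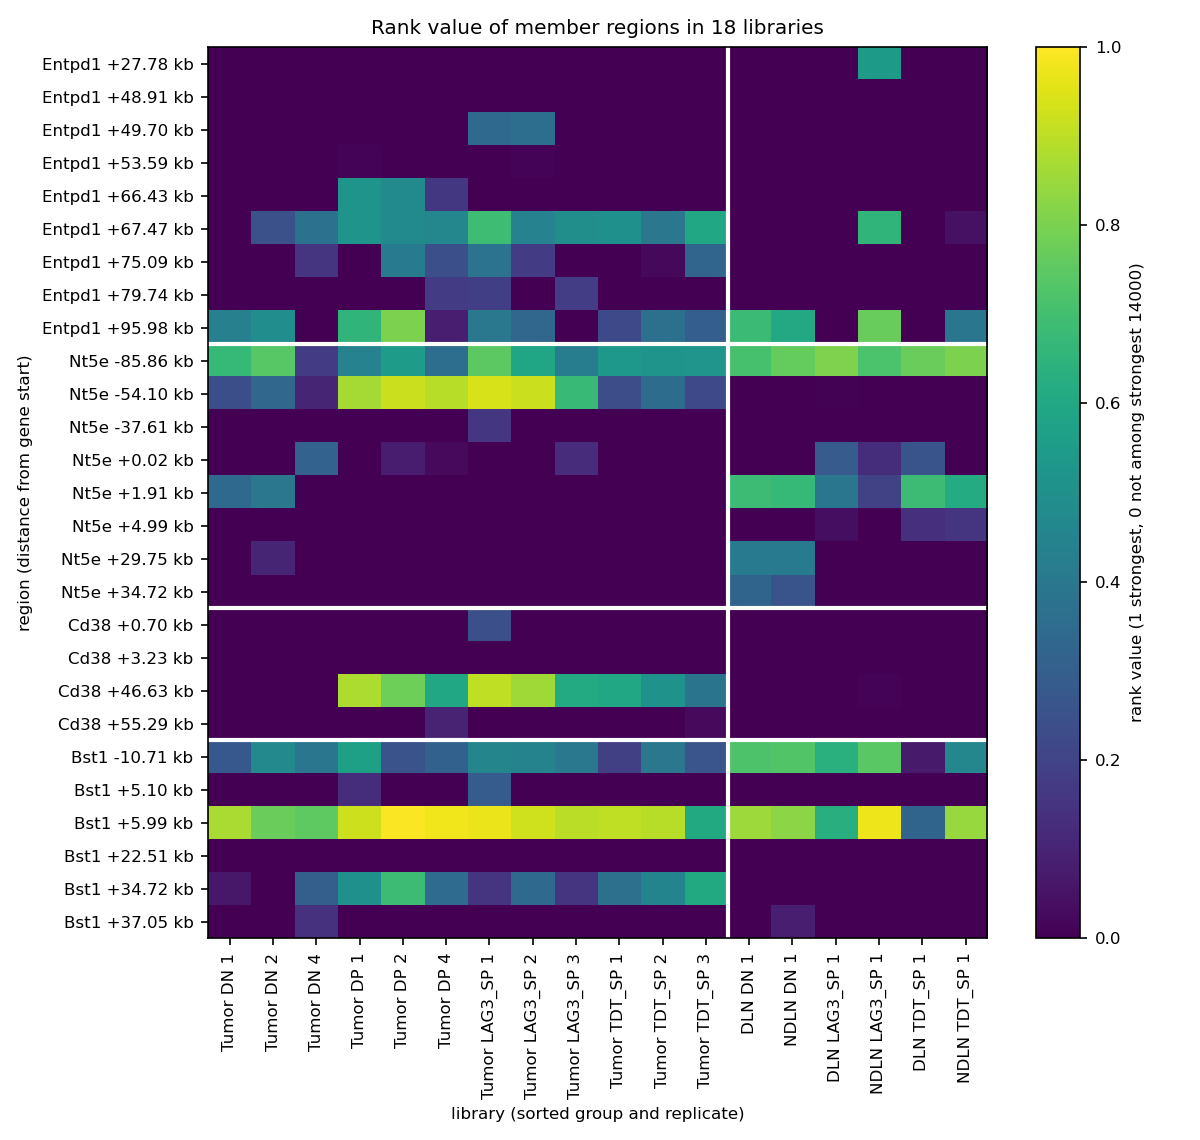
Rank value of every member region (rows, named by gene and distance in kb from the gene start) in the 18 libraries with long lists (columns), on one scale for the strongest 14000 peaks of each list. The rows at Bst1 +5.99 kb, Bst1 -10.71 kb and Nt5e -85.86 kb were filled across both tissues, whereas the row at Cd38 +46.63 kb was filled in tumor DP, LAG3_SP and TDT_SP only, except for a value of 0.00829 in 1 lymph node library.

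At Entpd1, the CD39 gene, the region with the highest mean rank value in tumor was +67.47 kb, inside the gene (chr19:40679586-40680086). It had a peak in 18 of 18 lists. Its ranks were 15100, 10518 and 8766 in tumor DN, 6759, 7301 and 7543 in DP, 4328, 7819 and 7055 in LAG3_SP, and 6974, 8422 and 5638 in TDT_SP. Each labelled library ranked it above all 3 DN libraries. The mean rank value of DN was 0.397 ± 0.172, against 0.621 ± 0.0211 for DP, 0.663 ± 0.0966 for LAG3_SP and 0.631 ± 0.0733 for TDT_SP (SD, n = 3 each), so the spread of DN was the widest of the 4.

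A second intragenic region, Entpd1 +79.74 kb (chr19:40691855-40692355), had no peak in the 6 lymph node lists. Its ranks were 17186, 14442 and 11519 in tumor DP and 11406, 14358 and 11443 in LAG3_SP. They were 31152, 29908 and 22255 in TDT_SP, and in DN 1 of 3 libraries had a peak, at rank 38006. DP and LAG3_SP overlapped with each other and not with TDT_SP or DN. The mean rank value was 0.347 ± 0.0891 in LAG3_SP, 0.243 ± 0.149 in DP and 0 in the other groups (SD, n = 3).

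The region Entpd1 +66.43 kb (chr19:40678549-40679049) lies about 1 kb before +67.47 kb, and its value rests on peak shape. It had ranks of 6759, 7301 and 11735 in DP, and 17616 and 25201 in 2 LAG3_SP libraries. Ranks were 32953 and 27942 in 2 TDT_SP libraries, and no DN library had a peak. In DP replicates 1 and 2 the value came from a single peak of 1622 and 1398 bp whose summit lay in the +67.47 kb region. Only 0.205% and 0.211% of the peaks in those lists were as wide, and in no other library did one peak cover both regions. DP replicate 4 had a separate peak at +66.43 kb. With peaks assigned by summit alone, the difference in rank value between DP and DN was 0.127 in place of 0.548.

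**Figure D2:**
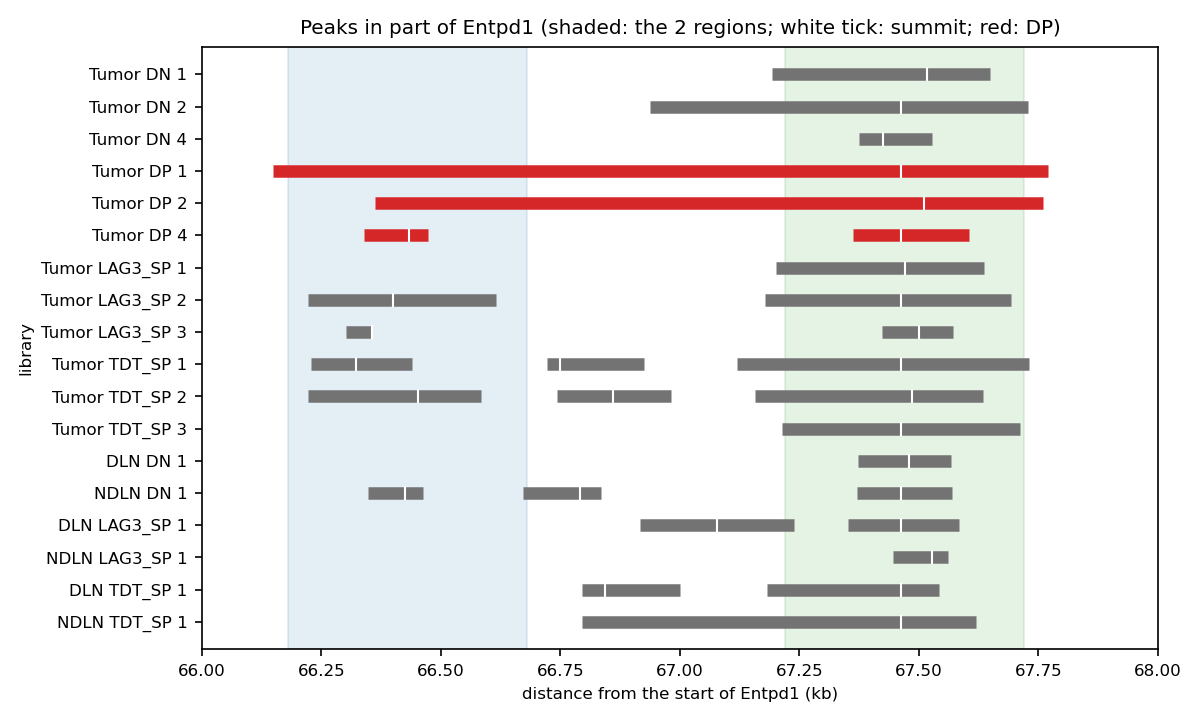
Extent of the peaks around both regions by distance from the start of Entpd1 (x axis, kb) in 18 libraries (y axis). Bars are peaks, white ticks are summits, red marks DP, and shading marks the 2 regions of 501 bp; in DP replicates 1 and 2 a single bar spans both.

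The other Entpd1 regions were weaker or less steady. Entpd1 +95.98 kb had a peak in 17 of 18 lists at ranks 2753 to 15822. It was found in lymph node as in tumor, with best ranks of 3245 and 2753, and was missing from tumor DN replicate 4. Entpd1 +75.09 kb had a peak in 15 of 18 lists at ranks 8267 to 29506, and Entpd1 +49.70 kb in 10 of 18. The regions at +27.78, +48.91 and +53.59 kb had a peak in 11, 10 and 9 of 18 lists.

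At Nt5e, the CD73 gene, a distal region was stronger and a region inside the gene weaker in tumor DP than in DN. The distal one, Nt5e -54.10 kb (chr9:88273256-88273756), was at ranks 1905, 1153 and 1489 in tumor DP and 838, 1131 and 4515 in LAG3_SP. It was at 10691, 9058 and 10923 in TDT_SP and 10636, 9378 and 12572 in DN. DP and LAG3_SP did not overlap with TDT_SP and DN, and TDT_SP overlapped with DN. Of the 6 lymph node lists, DLN LAG3_SP had a peak there at rank 13919 and NDLN TDT_SP at rank 20980. The authors' fold over local background at the peak was 15.8 to 20.5 in DP and 5.8 to 12.7 in DN.

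The region just inside the gene, Nt5e +1.91 kb (chr9:88329265-88329765), was strongest in the DN and TDT_SP cells of the lymph nodes. There it was at ranks 4414 and 4650 in DN, 4427 and 5377 in TDT_SP, and 8509 and 11265 in LAG3_SP. In tumor it was at 9221, 8438 and 14564 in DN and at 18816, 14207 and 14047 in TDT_SP. LAG3_SP had 14474, 19451 and no peak, and DP had 19320, 20994 and no peak. The tumor DN group thus lay between the lymph node DN libraries and the tumor DP libraries, with no overlap on either side.

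The promoter region Nt5e +0.02 kb had a peak in 18 of 18 lists at ranks 9622 to 21020, and no group lay clear of all the others. The far region Nt5e -85.86 kb (chr9:88241496-88241996) had a peak in 18 of 18 lists at ranks 2734 to 11558. Its mean rank value in tumor lay between 0.596 ± 0.0691 in DP and 0.695 ± 0.121 in LAG3_SP (SD, n = 3), a range smaller than the spread of DN (0.652 ± 0.227). Nt5e +29.75 kb had a peak in 15 of 18 lists, and Nt5e -37.61 kb in 7 of 18.

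At Cd38, the strongest region lay 3.06 kb beyond the gene end. Cd38 +46.63 kb (chr5:43915189-43915689) was at ranks 1719, 3090 and 5654 in tumor DP and 1365, 2000 and 5435 in LAG3_SP. It was at 5613, 6868 and 8635 in TDT_SP and 20202, 20505 and 17308 in DN. All 9 labelled libraries ranked it above all 3 DN libraries, and TDT_SP overlapped with the weaker end of DP. In the lymph nodes only the LAG3_SP libraries had a peak, at ranks 20599 and 13885. The peak was 84 to 537 bp wide, and the authors' fold over background was 10.6 to 22.2 in DP and 4.46 to 7.39 in DN.

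Elsewhere at Cd38 the peaks were weak in every group. Cd38 +0.70 kb, near the start of the gene, had a peak in 15 of 18 lists at rank 10570 or weaker, and Cd38 +3.23 kb in 6 of 18 at rank 18870 or weaker. Cd38 +55.29 kb had one in 10 of 18 at rank 12588 or weaker.

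Bst1, the CD157 gene, held the strongest member peak. Bst1 +5.99 kb (chr5:43824621-43825121), inside the gene, had a peak in 18 of 18 lists. Its ranks were 1763, 3192 and 3493 in tumor DN, 1055, 67 and 323 in DP, 388, 1004 and 1427 in LAG3_SP, and 1341, 1490 and 5515 in TDT_SP. DP and LAG3_SP ranked it above the 3 DN libraries without overlap, and TDT_SP overlapped with DN. In the lymph nodes it was at 348 to 9465.

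Bst1 +34.72 kb (chr5:43853345-43853845) lies in the 25.3 kb between Bst1 and Cd38 and is nearer to Bst1. It was at ranks 13096, 17453 and 9787 in tumor DN, 6996, 4416 and 9111 in DP, 11886, 9236 and 11815 in LAG3_SP, and 8838, 7693 and 5495 in TDT_SP. DP and TDT_SP lay above DN without overlap, whereas LAG3_SP overlapped with DN. In the lymph nodes 4 of 6 lists had a peak, at rank 18665 or weaker. Bst1 -10.71 kb had a peak in 18 of 18 lists at ranks 3580 to 12996.

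The weaker Bst1 regions at +5.10, +22.51 and +37.05 kb had peaks in 10, 13 and 14 of 18 lists, with best ranks of 9926, 15625 and 11998.

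**Figure D3:**
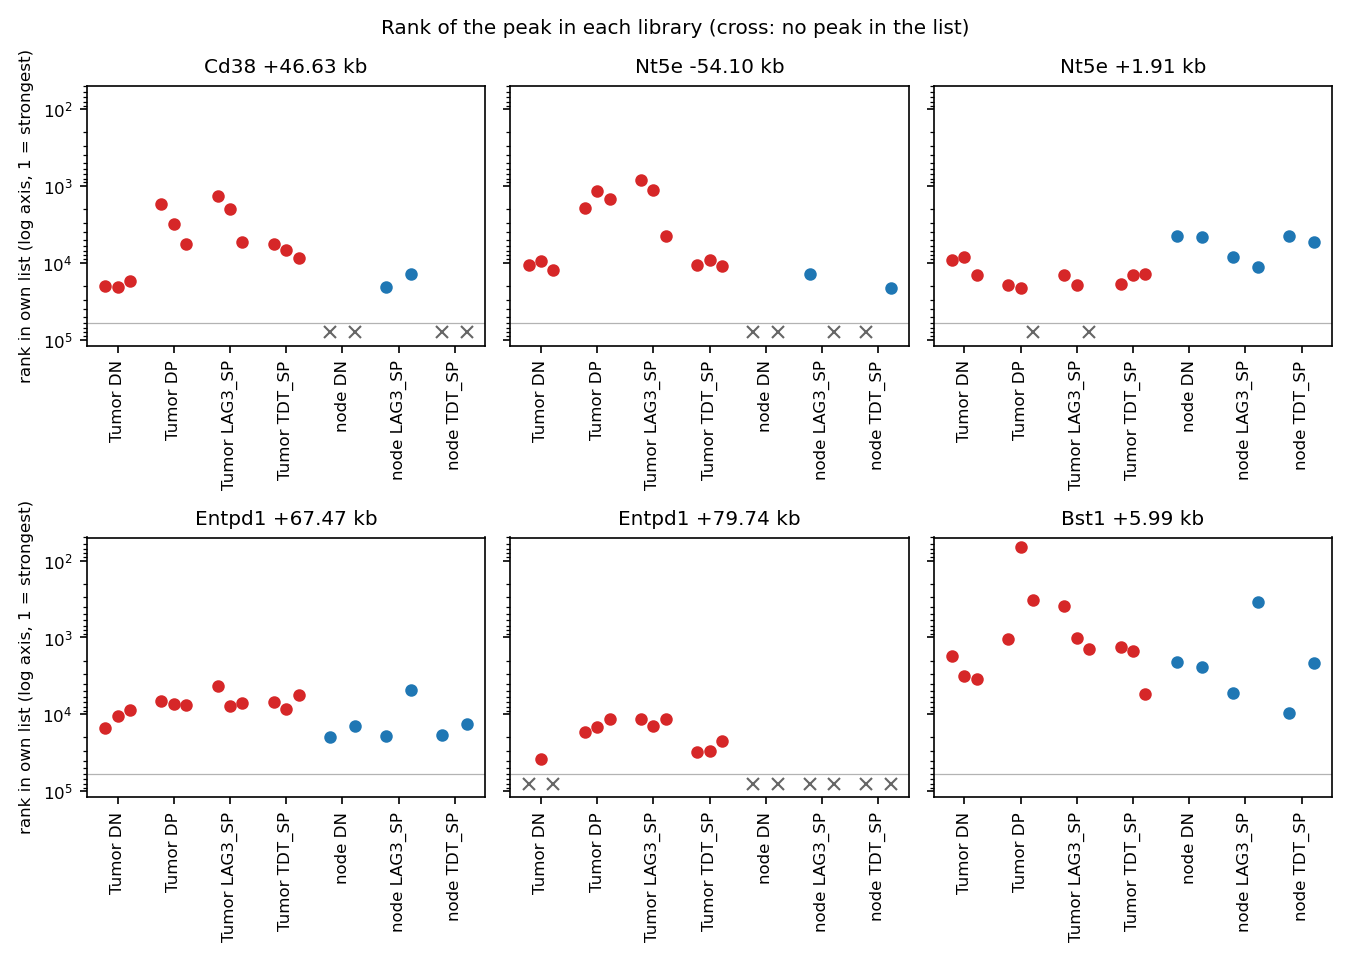
Rank of the peak in its own list (y axis, log scale, 1 strongest at the top) at 6 regions by group of libraries, with tumor in red, lymph node in blue and crosses where the list had no peak. Cd38 +46.63 kb and Nt5e -54.10 kb were stronger in tumor DP and LAG3_SP than in DN, Nt5e +1.91 kb was strongest in lymph node DN and TDT_SP, and Bst1 +5.99 kb was strong throughout.

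Against tumor DN, the counts of regions past the threshold (limma, adjusted p under 0.05 by Benjamini-Hochberg across every region of the fit) are a description, since the genes were picked with these differences known, and nothing is read from them. In DP minus DN, 3 of 25 member regions were higher and 1 lower, where 3.99% of all regions were called (2.62% higher and 1.37% lower). The higher ones were Cd38 +46.63 kb, Nt5e -54.10 kb and Entpd1 +66.43 kb, and the lower one was Nt5e +1.91 kb. In LAG3_SP minus DN 3 of 25 were higher and none lower, where 5.61% of all regions were called (3.61% higher and 2.01% lower). They were Cd38 +46.63 kb, Nt5e -54.10 kb and Entpd1 +79.74 kb. In TDT_SP minus DN 1 of 25, at Cd38, was higher, where 0.569% of all regions were called (0.211% higher and 0.358% lower), and that call was lost without TDT_SP replicate 1. The 3 comparisons share their DN libraries. Of the 12 fits that left out 1 library, the call at Nt5e +1.91 kb was lost in 8 and the call at Entpd1 +79.74 kb in 6, and both were lost with the replicate block.

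The differences in rank value from DN at Cd38 +46.63 kb were 0.787 (SE 0.0877) for DP, 0.816 (SE 0.0877) for LAG3_SP and 0.60 (SE 0.0877) for TDT_SP. At Nt5e -54.10 kb they were 0.492, 0.458 and 0.0336 (SE 0.0680 each). At Nt5e +1.91 kb they were -0.435, -0.355 and -0.260 (SE 0.109 each), with the same sign in all 3 groups. The median difference of the 25 regions was 0.0899 in DP, 0.0424 in LAG3_SP and 0.00179 in TDT_SP, beside -0.00507, -0.0165 and 0.00265 over all regions.

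Without LAG3_SP replicate 3, the LAG3_SP minus DN count was 6 of the member regions, with Entpd1 +49.70 kb, Nt5e -37.61 kb and Bst1 +5.10 kb added, where 9.7% of all regions were called in place of 5.61%. In fits of only the groups compared, no member region was called against DN in any of the 3 comparisons (limma; 7, 5 and 2 at an unadjusted p under 0.05 in DP, LAG3_SP and TDT_SP), where 0%, 0% and 0.0318% of all regions were. The same held when all peaks of each list were ranked (4, 4 and 2), where 0.0269%, 0.0231% and 0% of all regions were called.

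Of the marker sums for other cell types, the B cell sum and the CD4 and regulatory T cell sum were above DN in every labelled group. The summed B cell marker value was 0 to 0.314 in tumor DN, 0.735 to 0.923 in DP, 0.603 to 1.13 in LAG3_SP and 0.329 to 0.501 in TDT_SP, with peaks at Pax5, Ebf1 or Blk alone. Over 5 markers, the CD4 and regulatory T cell sum was 1.27 to 1.51 in DN and 2.04 to 2.28 in DP. It was 1.98 to 2.86 in LAG3_SP and 1.61 to 1.86 in TDT_SP. Foxp3 was at 0 in DN, DP and TDT_SP. Cd4 was at 0 in every DN library and above 0 in at least 1 library of each labelled group. The myeloid sum was 0.459 to 0.703 in DN, 0.633 to 1.14 in DP, 0.697 to 1.20 in LAG3_SP and 0.815 to 0.962 in TDT_SP, so DP and LAG3_SP overlapped with DN. The NK sum was 1.94 to 2.01, 1.57 to 1.98, 1.28 to 2.02 and 1.76 to 2.02 in the same order. The melanoma sum was 1.81 to 1.96, 1.94 to 1.96, 1.96 to 2.31 and 1.62 to 1.86. The stromal and endothelial sum of each labelled group overlapped with that of DN. The part of these cell types in the member differences was not tested.

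The labelled tumor groups were then compared with each other. These contrasts share libraries with those above, and results of the series were known when the genes were chosen. The TDT_SP libraries ranked Nt5e -54.10 kb lower than DP, at 0.462 ± 0.0535 against 0.920 ± 0.0198 (SD, n = 3; limma difference -0.458, SE 0.0680, adjusted p = 0.0482). LAG3_SP ranked it higher than TDT_SP, at 0.886 ± 0.108 (difference 0.424, SE 0.0680, adjusted p = 0.0225). Between LAG3_SP and DP the same region differed by -0.0340 (SE 0.0680, limma adjusted p = 1).

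In TDT_SP minus DP 2 of 25 member regions were called, both lower, where 0.0333% of all regions were called (0.0185% higher and 0.0148% lower). The second was Entpd1 +66.43 kb (difference -0.548, SE 0.0774, limma adjusted p = 0.0400). Its DP value rests on the wide peaks described above, and its difference was -0.127 with peaks assigned by summit. This region entered the fit through kept peaks in 3 DP libraries and 1 LAG3_SP library, with none in TDT_SP. Its p-value is therefore not independent of that filter. Neither call was steady. That at Nt5e -54.10 kb was lost in 11 of 12 fits that left out 1 library, the exception being LAG3_SP replicate 3, and under all 8 other settings. Over the 12 fits its difference was -0.489 to -0.44, and that at Entpd1 +66.43 kb was -0.63 to -0.499. That at Entpd1 +66.43 kb was lost in 10 of 12 such fits and under 6 of 7 other settings; it passed without DP replicate 4, at a region centred nearby, and without LAG3_SP replicate 3.

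In LAG3_SP minus TDT_SP 1 of 25 regions was called, where 0.942% of all regions were called (0.706% higher and 0.236% lower). The call at Nt5e -54.10 kb was lost without LAG3_SP replicate 1 or without any 1 of the 3 TDT_SP libraries, 4 of 12 fits. It was also lost under 6 of 8 other settings, the replicate block among them (limma adjusted p 0.0584 to 1 over the 6). Its difference was 0.390 to 0.486 over the 12 fits. Without LAG3_SP replicate 3, 2 regions passed, with Entpd1 +49.70 kb added (difference 0.438, limma adjusted p = 0.0217), where 3.12% of all regions were called. Entpd1 +79.74 kb was next, with 0.347 against 0 (limma adjusted p = 0.0687). It passed without DP replicate 4 (limma adjusted p = 0.0338), where 1.4% of all regions were called. That region entered the fit through kept peaks of DP and LAG3_SP alone, so its p-values are not independent of that filter.

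In LAG3_SP minus DP no member region was called, and 0% of all regions were (limma; 2 of 25 member regions at an unadjusted p under 0.05). The smallest p was at Entpd1 +66.43 kb, with a difference of -0.523 (SE 0.0774, limma adjusted p = 0.188). The limit from the filter given above for this region holds here too. Without LAG3_SP replicate 3, 2 member regions passed: Entpd1 +66.43 kb was lower (adjusted p = 0.0372) and Entpd1 +49.70 kb was higher (adjusted p = 0.0496), both by limma, where 0.2% of all regions were called. Without DP replicate 4, 1 passed, next to the former (difference -0.606, limma adjusted p = 0.00288), where 0.0791% of all regions were called. Cd38 +46.63 kb differed by 0.0292 (SE 0.0877) between LAG3_SP and DP, and TDT_SP lay 0.187 below DP (SE 0.0877, limma adjusted p = 0.434).

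**Figure D4:**
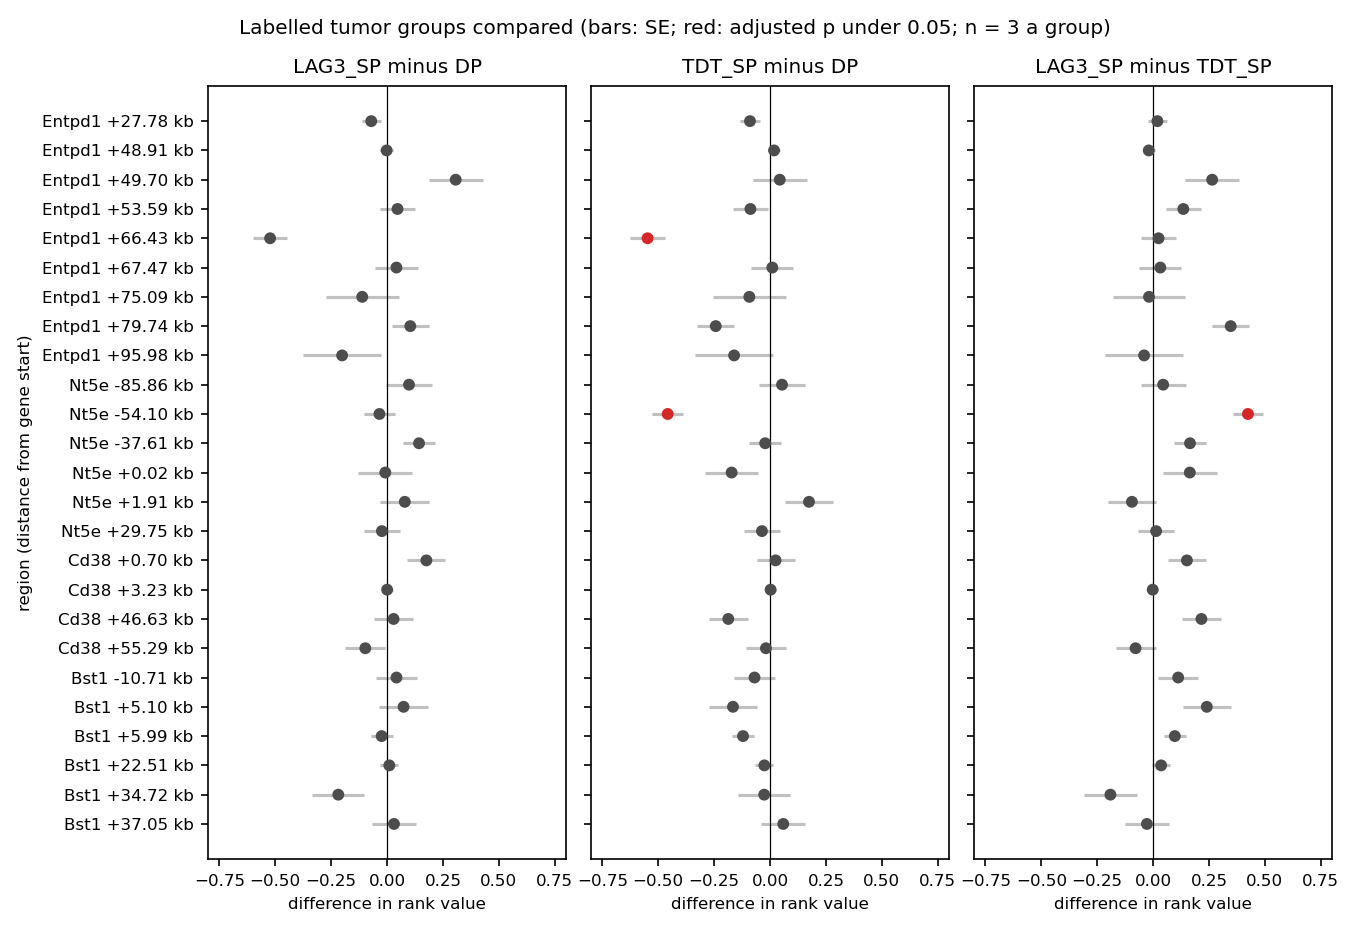
Difference in rank value (x axis) at the 25 member regions (y axis) for 3 comparisons of labelled tumor groups, with bars for the standard error and red for an adjusted p under 0.05. Nt5e -54.10 kb and Entpd1 +66.43 kb are red in TDT_SP minus DP, Nt5e -54.10 kb is red in LAG3_SP minus TDT_SP, and no point is red in LAG3_SP minus DP.

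The comparison of tumor with lymph node used the DN, LAG3_SP and TDT_SP libraries, 9 from tumor and 6 from the pooled nodes, the strongest 14000 peaks of each and 22997 regions, with the sorted group as a covariate. All 6 lymph node libraries were replicate 1, whereas the tumor libraries were replicates 1 to 4. Tissue is therefore confounded in part with replicate number, and their parts cannot be fully told apart. Member regions numbered 17, of which 4 were higher in tumor and 2 lower, where 22.2% of all regions were called (10.4% higher and 11.7% lower). The 4 higher regions were 1 at each gene. Nt5e was the gene with regions in both directions. Entpd1 and Cd38 were picked on ranks in tumor libraries that also enter this fit. Adjusted p-values at these genes are therefore not independent of that choice.

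At Cd38 +46.63 kb the tumor rank value had a lowest, median and highest of 0, 0.510 and 0.903, and the lymph node values 0, 0 and 0.00829 (difference 0.428, SE 0.107, limma adjusted p = 0.0110). At Nt5e -54.10 kb they were 0.102, 0.330 and 0.940 in tumor and 0, 0 and 0.00586 in lymph node (difference 0.446, SE 0.10, limma adjusted p = 0.00629). The tissues did not overlap at Nt5e -54.10 kb, and at Cd38 +46.63 kb the 3 tumor DN libraries were at 0 like most lymph node libraries. Tumor values above 0 at Cd38 +46.63 kb came from LAG3_SP and TDT_SP (means 0.791 and 0.497, n = 3 each), which are described as labelled cells. The fit assumes 1 tissue difference for all sorted groups, and all DN values there were 0. All 3 tumor DN lists did have a peak there, at ranks 17308 to 20505, too weak to be kept for this fit. Neither lymph node DN list used had one. The values of 0 therefore cannot show whether DN differed between the tissues at this region. At Bst1 +34.73 kb the lowest, median and highest values were 0, 0.301 and 0.608 in tumor and 0 in all 6 lymph node libraries (difference 0.271, SE 0.0732, limma adjusted p = 0.0162). This region had a kept peak in 8 of 9 tumor libraries and entered the fit through tumor alone. Cd38 +46.63 kb had one in 6 tumor libraries and 1 lymph node library, and Nt5e -54.10 kb in 9 and 1. Adjusted p-values at these regions are therefore not independent of that filter.

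Nt5e +1.91 kb was lower in tumor, with 0, 0 and 0.397 there and 0.195, 0.642 and 0.685 in lymph node (difference -0.458, SE 0.0848, limma adjusted p = 0.00232). The differences at these 4 regions were past the threshold in all 15 fits that left out 1 library. With the replicate block no member region was called (limma; 4 of 17 at an unadjusted p under 0.05), and 1.75% of all regions were in place of 22.2%. Among settings other than leaving out a library, the calls at Cd38 +46.63 kb and Nt5e +1.91 kb were each lost under 3 of 7, that at Nt5e -54.10 kb under 3 of 8, and that at Bst1 +34.73 kb under 2 of 7. The remaining pair were less steady. Nt5e -85.88 kb was lower in tumor by 0.215 on the rank value scale (0.546 ± 0.177, n = 9, against 0.761 ± 0.0411, n = 6; limma adjusted p = 0.0494), and this was lost in 10 of 15 fits that left out 1 library. Entpd1 +67.47 kb was higher by 0.30 (0.417 ± 0.202 against 0.117 ± 0.264; limma adjusted p = 0.0482), lost in 11 of 15.

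The DN libraries alone gave 3 called regions of 13, where 20.5% of all regions were called, and all 3 were lower in tumor: Bst1 -10.70 kb, Nt5e +29.71 kb and Nt5e +34.72 kb (limma, 3 tumor and 2 lymph node libraries). Nt5e +29.71 kb had a peak among the strongest 14000 in both lymph node DN libraries, at a mean rank value of 0.413, and at 0.0343 in the 3 tumor DN libraries. In this fit Cd38 +46.63 kb was at 0 in every library. In the 12 tumor libraries the summed myeloid marker value was 0.459 to 1.20, and in lymph node it was 0.196 to 0.674. The B cell sum was 0 to 1.13 in tumor and 0 to 0.182 in lymph node, and the part of either cell type in the tissue differences was not tested.

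The difference between LAG3_SP and TDT_SP was also compared between the tissues, as an interaction. No member region passed (limma; 2 of 17 at an unadjusted p under 0.05), where 1.01% of all regions did (0.783% higher and 0.23% lower), with the lowest adjusted p = 0.0880 at Nt5e +4.99 kb and 0.105 at Nt5e -54.10 kb. At the latter LAG3_SP exceeded TDT_SP by 0.573 more in tumor than in lymph node (SE 0.155).

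**Figure D5:**
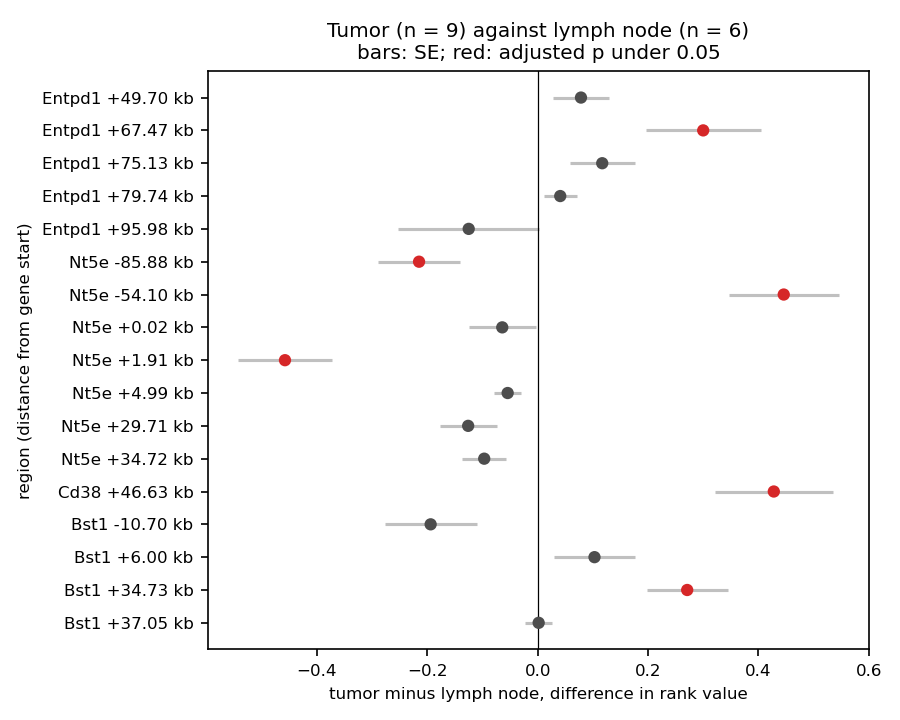
Tumor minus lymph node difference in rank value (x axis) at 17 member regions (y axis), with bars for the standard error and red for an adjusted p under 0.05 (9 tumor and 6 lymph node libraries). Red points at Cd38 +46.63 kb, Nt5e -54.10 kb, Bst1 +34.73 kb and Entpd1 +67.47 kb lie above 0, and those at Nt5e +1.91 kb and Nt5e -85.88 kb lie below.

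The short lists were not used to choose the members and offer a look at further libraries. Tumor DN replicate 3, with 4603 peaks, and tumor DP replicate 3, with 5188, both had the Bst1 +5.99 kb peak, at ranks 1404 and 1502. Nt5e -54.10 kb had a peak in DP replicate 3, at rank 4793, and none in DN replicate 3. The 4603 peaks of DN replicate 3 do not reach that rank, so these 2 lists cannot show a difference there. Among the long lists, 3 of 3 DP, 3 of 3 LAG3_SP, 0 of 3 DN and 0 of 3 TDT_SP had that peak within their strongest 5188. Neither short list had a peak at Cd38 or Entpd1, although 2 of 3 long DP lists had Cd38 +46.63 kb within the same number. NDLN DN replicate 2 had Bst1 -10.71 kb, Bst1 +5.99 kb and Nt5e +1.91 kb, and DLN TDT_SP replicate 2 had Bst1 -10.71 kb. With 1 library a group these are values only.

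Among 56 other genes of adenosine, purine and NAD metabolism, 38 had 89 regions in the tumor fit. In DP minus DN 1 region was higher and none lower (1.12% against 3.99% of all regions, limma). It lay inside Enpp1, whose product cleaves extracellular ATP and cGAMP, with a rank value of 0.611 ± 0.0616 among the DP libraries (SD, n = 3) and no kept peak in DN. In LAG3_SP minus DN the same Enpp1 region was higher, at 0.541 ± 0.232, and Nampt +0.42 kb was lower, at 0.293 ± 0.508 against 0.949 ± 0.00749 (2.25% of the list's regions against 5.61% of all). This count of 2 was 0 with peaks ranked by fold, with all peaks, with the strongest 4000, with only the groups compared, with the replicate block, and without DN replicate 1, DN replicate 2 or LAG3_SP replicate 1. With 1 library left out, the list's counts ranged from 0 to 5 in DP minus DN and from 0 to 6 in LAG3_SP minus DN. Nampt encodes the enzyme that limits NAD salvage, and the SD of LAG3_SP there exceeds its mean. The other 4 tumor contrasts gave 0 calls in the list (limma; 5 to 17 of 89 regions at an unadjusted p under 0.05).

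Between tumor and lymph node 5 of 82 regions of the list were higher and 8 lower, 15.9% against 22.2% of all regions. The higher ones were at Nmnat1 and Nmnat2, Qprt and Nadsyn1, all enzyme genes of NAD synthesis, and at Slc29a2, a nucleoside transporter gene. At Nadsyn1 +27.39 kb the value was 0.951 ± 0.028 in tumor (n = 9) and 0.740 ± 0.118 in lymph node (n = 6; limma adjusted p = 0.000836). The lower ones included 2 regions of Dpp4, which encodes the adenosine deaminase binding protein CD26, 2 of Nt5c3, a cytosolic nucleotidase gene, and 1 each of Adk, P2ry1, Slc28a2 and Enpp1. At Adk +60.41 kb, in the gene of the kinase that returns adenosine to AMP, the value was 0.0794 ± 0.127 in tumor and 0.570 ± 0.195 in lymph node (limma adjusted p = 0.00314).

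Regions with the pattern closest to a member were found over the 18 libraries by the mean absolute difference in rank value (strongest 14000 peaks, 23781 regions). For Cd38 +46.63 kb they lay at 1700012B07Rik (0.0477), Blk (0.0599), 2900026A02Rik (0.0606), Dock2 (0.0613) and Zfp541 (0.0618). For Nt5e -54.10 kb they lay at Znhit6 (0.0582), Stab2 (0.0788), Map3k1 (0.0865), Id2 (0.0877) and Ttc39b (0.0878). Blk is among the 6 B cell markers listed above. For Entpd1 +66.43 kb they lay at Iyd, Sema4b, Cited2, Auh and 4933424G06Rik (0.0238 to 0.0263), where the member itself was at 0 in 15 of 18 libraries. For Bst1 +34.72 kb they lay at Larp1, Acacb, Trerf1, Smndc1 and Armc2 (0.0751 to 0.0869).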

How the data were processed

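Peak lists of 24 Omni-ATAC libraries were analysed. Per the submitters' processing notes the tools were BWA for alignment and MACS2 for peaks, on GRCm38/mm10; no version of either is stated in what was used here. The deposited lists give per peak a fold ratio over local background, a -log10 p and a -log10 q, computed by the authors for each library on its own. Per list, the smallest -log10 q was 1.3 to 1.58. Members and lists were chosen with earlier results of these data known.

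Genes were taken from RefSeq (GRCm38.p6; 21631 genes, nearest interval). Peaks were ranked by -log10 p within a list, and 53 of 586440 lay outside the chromosomes used. Regions of 501 bp were placed on summits, strongest first, and kept when peaks of 2 or more libraries overlapped them by 1 bp. Rank values were compared with limma 3.58.1 in R 4.3.3 (lmFit, eBayes with trend), with all tumor groups in 1 fit, and Benjamini-Hochberg adjustment over all regions at 0.05. The limma fit was run on simulated data with independent normal noise, which lack the exact zeros and shared deviations of the real values. That run cannot show how well p-values hold for these data. Tables were built with Python 3.11.15, numpy 2.4.6 and pandas 2.3.3. In the tissue fit each lymph node subset has 2 libraries, which are assumed to vary like the rest.

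Whether replicates are separate animals is not stated, and p-values measure only the spread between these libraries. Named regions are those called, those differing by 0.5 or more in any contrast, and the strongest of each gene. Between libraries 0% of peaks were identical. Alternatives changed the ranking, the number of peaks, the overlap rule, the libraries and the block. Of the planned cell type markers, 1 is not reported here.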

Additional observations from a re-analysis of the deposited data

How the results depend on the processing

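Counts of member regions called depended on the processing. Against DN, with 4 in DP, 3 in LAG3_SP and 1 in TDT_SP, the counts were 0 in each with all peaks of each list, with the strongest 4000 peaks or with only the groups compared. DP minus DN was 2 with summits inside the region, and as presence or absence LAG3_SP minus DN was 1 and TDT_SP minus DN 0. TDT_SP minus DP, with 2, was 1 with a peak in 3 libraries (Entpd1 +66.43 kb) or as presence or absence, and 0 under the other settings. LAG3_SP minus TDT_SP, with 1, was 0 ranked by fold, with all peaks, with the strongest 4000 or with only the groups compared. As presence or absence, the 1 call in each of these comparisons was Entpd1 +79.74 kb, which the main fit did not call in either. Tumor minus lymph node, with 6, was 3 with all peaks, as presence or absence or in DN libraries only, and 0 with the strongest 4000. The cause was not tested. With 1 library left out the counts ranged 3 to 5 (DP minus DN), 2 to 6 (LAG3_SP minus DN), 0 to 1 (TDT_SP minus DN), 0 to 2 (LAG3_SP minus DP, TDT_SP minus DP and LAG3_SP minus TDT_SP) and 4 to 6 (tumor minus lymph node). No difference changed sign. The pathway list count in tumor minus lymph node, 13, ranged from 2 to 22.

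Replicate numbers were not taken to pair the libraries: 7 of 14 same-numbered pairs in tumor had a correlation of deviations over 0.1, and 2 of 12 libraries correlated best with a library of their own number. All 14 were above 0 (0.0271 to 0.268, median 0.102), against a median of -0.127 for the 40 other pairs (-0.251 to 0.333), and 12 of 12 libraries had a higher mean correlation with their own number. DN replicate 4, DP replicate 4, LAG3_SP replicate 3 and TDT_SP replicate 3 correlated with each other at 0.187 to 0.333. Their correlations with replicate 1 and 2 lists of other groups were all negative. The replicate number does not capture this grouping, and its cause was not tested. With the replicate block the count was 0 in TDT_SP minus DP, in LAG3_SP minus TDT_SP and in tumor minus lymph node, and 3 in DP minus DN. For 6 differences no region was formed under an alternative (5 with the strongest 4000 peaks, 1 in DN libraries only), so no value could be given.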
